A study of Mus musculus with 9 samples.

Results

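The genes of synaptic vesicles and of exocytosis were followed across the forebrains of mice given clozapine, mice given haloperidol and untreated mice. The list held 58 genes chosen by name, from synapsins to the clathrin coat, and 44 of them had a probe set with exactly 1 gene symbol on the array. Of these, 37 had an average over the 9 arrays above the filter on low values, a log2 value of 3.448, and were tested. Each gene was read from its probe set with the highest average. The members that could not be read this way, and were not analysed here, were Amph, Napg, Rims1, Rph3a, Slc17a7, Slc18a2, Sv2a, Sv2b, Sv2c, Syn1, Syn3, Syngr3, Synj1 and Unc13a.

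At a nerve terminal, transmitter is packed into small vesicles that wait near the plasma membrane until calcium enters. Synaptobrevin on the vesicle then zips together with syntaxin and SNAP-25 on the plasma membrane into the SNARE complex, synaptotagmin senses the calcium, and the membranes fuse. The ATPase NSF takes the spent complexes apart, and clathrin and dynamin retrieve the vesicle membrane. In the forebrain, dopamine and glutamate terminals that antipsychotic drugs act on release their transmitter through this cycle.

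The animals were male C57BL mice, aged 4 weeks at the start, with no genetic alteration named in the labels. The first group drank clozapine at 12 mg/kg/day, an atypical antipsychotic, and the second drank haloperidol at 1.6 mg/kg/day, a typical antipsychotic that blocks dopamine D2 receptors. The control group drank water without drug, and treatment lasted 4 weeks after 2 weeks of acclimatisation shared by all groups. Of 30 animals, 9 were arrayed on Affymetrix U74Av2, 3 per group and 1 per array, without pooling. The side of the forebrain was not settled, since the labels name both right and left. The 2 doses differ, so a difference between the drugs is a difference between these 2 regimens.

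Values below are the deposited GCRMA values on the log2 scale, where a difference of 1 is a doubling, and each gene's 3 values per group are given in the order of replicates 1 to 3. A level on this scale belongs to its probe set and was not compared between genes. Of 11 general neuron markers, 10 had a named probe set, and all 10 lay above the filter. Control replicate 3 lay over 1 log2 unit from the median of the other 8 arrays for 10 of the 37 members. The share of all probe sets for which it did so was not taken. It was the lowest array for 22.4% of all probe sets tested and the highest for 13.4%. Haloperidol replicate 3 carried pituitary transcripts. The summed linear level of the 6 pituitary markers was 11071 in that array and 31.1 to 36.4 in the others. Results that rest on control replicate 3 are given with and without it. Less RNA per cell and fewer cells of a type cannot be told apart in tissue of this kind.

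No synaptic vesicle gene passed the adjusted threshold in any comparison. In clozapine against control, 25 of 37 members lay above, where 49.5% of all probe sets did, and 12 below, with a median difference of 0.04, against a median of -0.00 over all 7453 probe sets tested. In haloperidol against control, 23 lay above, beside 46.4% of all probe sets, and 14 below, with a median of 0.05, against -0.02 over all probe sets. Of the 37, 29 lay above in that comparison after each array was centred on its median and 21 after quantile normalization. Centring itself raised the difference of every probe set by 0.10 there. The share of all probe sets above was not taken after either scaling. In clozapine against haloperidol, 24 lay above, beside 56.4% of all probe sets, and 13 below, with a median of 0.03 in both. Centring, which shifted every probe set by -0.10 here, left 12 of 37 above, again without a share over all probe sets. Both drug groups were set against the same 3 control arrays, so their differences from control are not independent of each other.

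With limma's moderated test and Benjamini-Hochberg adjustment, 0 of 37 members were called in each of these comparisons and in the F test over the 3 groups, as were 0 of 7453 probe sets (0%). At an unadjusted p under 0.05, 1 of 37 members differed between clozapine and control (Snap23), where 0.939% of all probe sets did. In haloperidol against control it was 1 of 37 (Dnm1), where 9.12% of all probe sets passed. In clozapine against haloperidol it was again 1 of 37 (Dnm1), beside a background of 3.64%. The unadjusted F test had 0 of 37 members under 0.05, with 3.37% of all probe sets. With 3 arrays in each group, the smallest two-sided p of an exact permutation test is 0.1.

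Few members had groups that did not overlap. Clozapine arrays lay wholly above control arrays for 0 of 37 members, beside 1.27% of all probe sets, and wholly below for 0, beside 2.16%. Haloperidol arrays lay wholly below control arrays for 2 members, Dnm1 and Unc13b, beside 19.4% of all probe sets, and wholly above for 0 members, beside 2.29%. Clozapine arrays lay wholly above haloperidol arrays for 2 members, Dnm1 and Syt3, beside 15.2% of all probe sets, and wholly below for 0, beside 1.96%. The share of members with haloperidol arrays wholly below control arrays was smaller than that of all probe sets, a description that was not tested. The share of all probe sets covers every level above the filter. It was not matched to the members' levels, so no conclusion about the members is drawn from it.

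**Figure D1:**
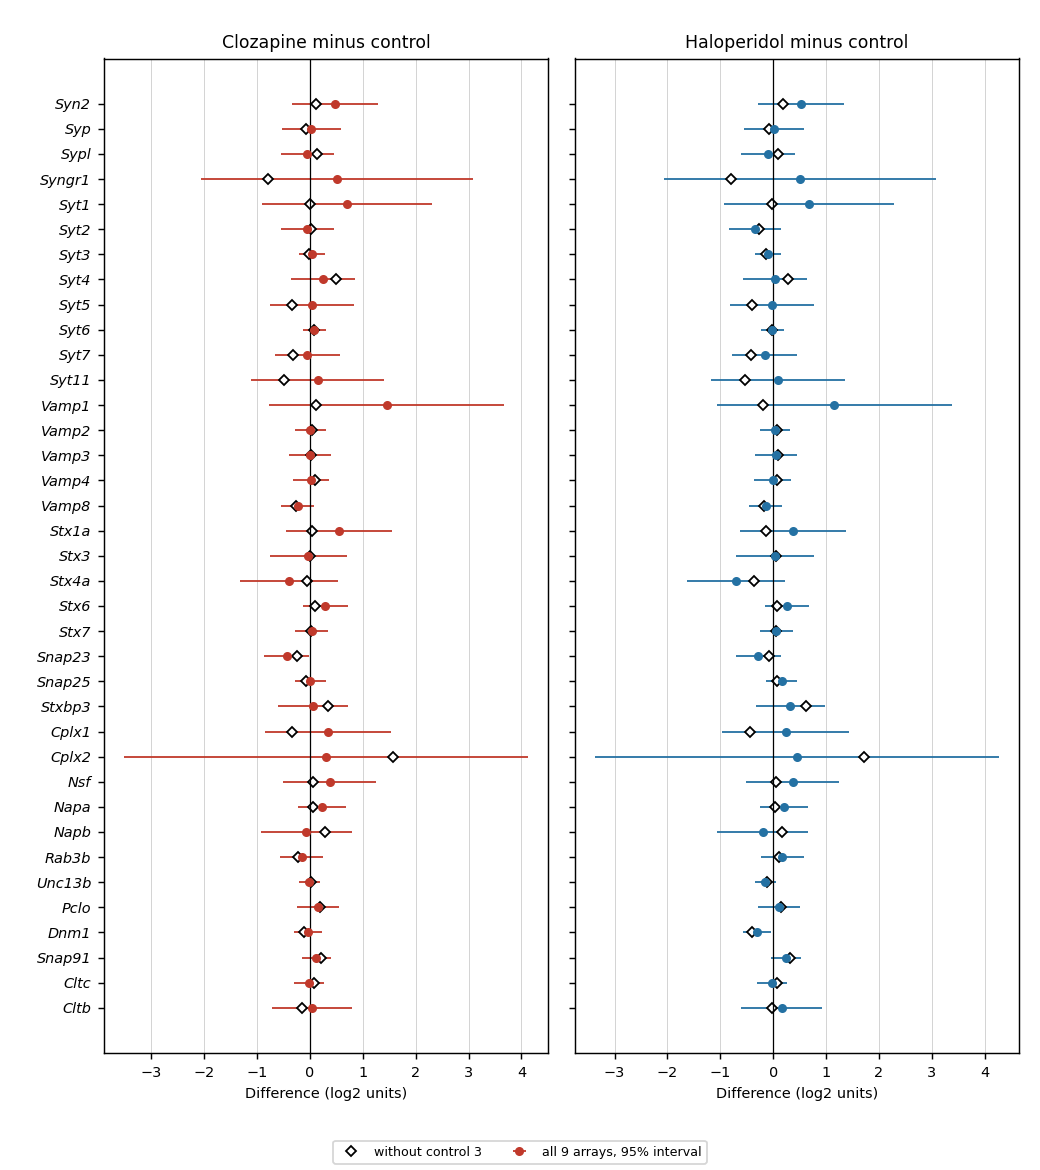
Difference between groups (log2, horizontal) for each of the 37 members (vertical), with points for the estimates, bars for 95% intervals from limma on 9 arrays and open diamonds for the estimates without control replicate 3. The members range from -0.44 to 1.45 in clozapine minus control and from -0.70 to 1.15 in haloperidol minus control over all 9 arrays, and the widest bars belong to Cplx2, Syngr1 and Vamp1.

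Dnm1, dynamin 1, the neuronal GTPase that pinches retrieved vesicles from the plasma membrane, was the member with the lowest p in haloperidol against control. It had 11.46, 11.68 and 11.38 in the clozapine arrays, 11.23, 11.31 and 11.15 in the haloperidol arrays and 11.56, 11.69 and 11.39 in the control arrays. All 3 haloperidol arrays were below all 6 others, and the clozapine and control arrays interleaved. The haloperidol minus control difference was -0.31 ± 0.11 (SE, n = 3 per group), with a 95% interval of -0.58 to -0.049, an unadjusted p of 0.0255 and an adjusted p of 0.53 in limma. The clozapine minus haloperidol difference was 0.27 ± 0.11, with an unadjusted p of 0.0437 and an adjusted p of 0.915 in limma, and clozapine minus control was -0.04 ± 0.11. Without control replicate 3 the haloperidol minus control difference was -0.39.

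A further probe set for Dnm1 lay above the filter. It had 10.79, 10.95 and 11.22 in the clozapine arrays, 11.03, 10.59 and 10.58 in the haloperidol arrays and 11.11, 11.50 and 11.07 in the control arrays. The haloperidol arrays were again all below the control arrays, by -0.49 ± 0.18 on average, with an unadjusted p of 0.0247 and an adjusted p of 0.53 in limma. Here haloperidol replicate 1 lay above clozapine replicates 1 and 2, so the drug groups overlapped. Clozapine minus control was -0.24 ± 0.18 in this probe set, against -0.04 in the first. Without control replicate 3 the differences from control in this probe set were -0.32 for clozapine and -0.57 for haloperidol. Centring every array on its median turned the first probe set's haloperidol minus control difference into -0.21. In the further probe set, haloperidol replicate 1, at 11.03, and control replicate 3, at 11.07, were close. Centring raised haloperidol minus control by 0.10 for every probe set, and whether the groups of the further probe set stayed apart after it was not taken.

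The other members of this role that were measured, Snap91, Cltc and Cltb, had haloperidol arrays that overlapped the control arrays. Snap91, the clathrin assembly protein AP180 of nerve terminals, had 10.54, 10.29 and 10.47 in the clozapine arrays, 10.71, 10.42 and 10.51 in the haloperidol arrays and 10.17, 10.29 and 10.47 in the control arrays. Haloperidol replicate 1 was the highest and control replicate 1 the lowest, and haloperidol replicate 2 lay below control replicate 3. Haloperidol minus control was 0.24 ± 0.12, with an adjusted p of 0.562 in limma. Cltc, the clathrin heavy chain, had 11.38, 11.33 and 11.42 in the clozapine arrays, 11.59, 11.25 and 11.29 in the haloperidol arrays and 11.34, 11.27 and 11.59 in the control arrays. Its differences from control were -0.02 ± 0.12 for both drugs, and the arrays of the 3 groups interleaved. Cltb, a clathrin light chain, ranged from 5.52 to 6.60.

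**Figure D2:**
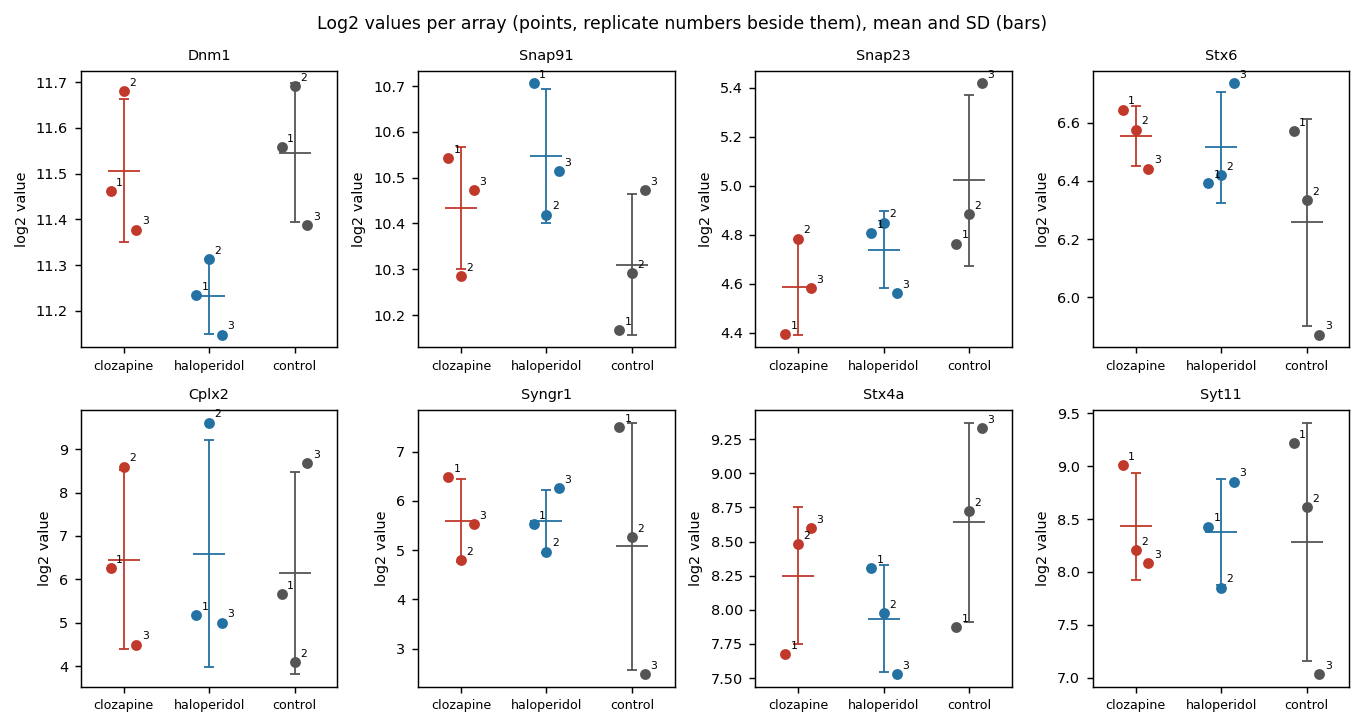
Log2 value per array (vertical) of 8 members in the clozapine, haloperidol and control groups (horizontal), with 1 numbered point per array, a dash at each group's mean and bars of 1 SD. The haloperidol points of Dnm1 sit below all others, Cplx2 splits within every group, and control replicate 3 is the extreme point of Syngr1, Stx4a, Syt11, Snap23 and Stx6.

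The plasma membrane and endosomal SNAREs gave the remaining low p-values in the comparisons with control. Snap23, a relative of SNAP-25 found in many cell types, had 4.39, 4.78 and 4.58 in the clozapine arrays, 4.81, 4.85 and 4.56 in the haloperidol arrays and 4.76, 4.88 and 5.42 in the control arrays. Control replicate 3 was the highest array, and clozapine replicate 2 lay above control replicate 1. The difference between clozapine and control was -0.44 ± 0.19, with a 95% interval of -0.86 to -0.0074, an unadjusted p of 0.047 and an adjusted p of 1 in limma. Haloperidol minus control was -0.28 ± 0.19. Without control replicate 3 the differences were -0.24 for clozapine and -0.085 for haloperidol.

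Stx4a, a plasma membrane syntaxin of many tissues, had 7.67, 8.48 and 8.60 in the clozapine arrays, 8.31, 7.97 and 7.53 in the haloperidol arrays and 7.87, 8.72 and 9.33 in the control arrays. The highest array was again control replicate 3, and every group spanned more than 0.7 log2 units. Haloperidol minus control was -0.70 ± 0.40, with an adjusted p of 0.606 in limma, and -0.36 without control replicate 3. In clozapine minus control the value was -0.39 ± 0.40, and -0.05 without that array.

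Stx6, a syntaxin of the trans-Golgi network and endosomes, had 6.64, 6.58 and 6.44 in the clozapine arrays, 6.39, 6.42 and 6.74 in the haloperidol arrays and 6.57, 6.33 and 5.87 in the control arrays. Control replicate 3 was the lowest array and haloperidol replicate 3 the highest. For clozapine against control it gave 0.30 ± 0.18, and 0.10 without control replicate 3. Vamp8, an endosomal and granule SNARE, had 5.27, 5.22 and 5.43 in the clozapine arrays, 5.27, 5.36 and 5.55 in the haloperidol arrays and 5.80, 5.35 and 5.47 in the control arrays. Control replicate 1 was the highest array, and clozapine minus control was -0.23 ± 0.14. Stx3 and Stx7 ranged from 5.52 to 6.57 and from 8.58 to 9.10 over the 9 arrays, with overlapping groups.

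The SNAREs of synaptic vesicle fusion itself showed close group means where their probe sets were stable between replicates. Snap25, the plasma membrane partner of syntaxin 1, had 13.11, 12.91 and 12.98 in the clozapine arrays, 13.26, 12.99 and 13.19 in the haloperidol arrays and 13.21, 12.93 and 12.82 in the control arrays. Haloperidol minus control was 0.16 ± 0.12 and clozapine minus control 0.01 ± 0.12, and the groups overlapped. The haloperidol difference was 0.076 without control replicate 3 and 0.27 without control replicate 1. Vamp2, synaptobrevin 2, the main vesicle SNARE of the forebrain, had 11.83, 11.77 and 11.47 in the clozapine arrays, 11.58, 11.90 and 11.64 in the haloperidol arrays and 11.65, 11.63 and 11.74 in the control arrays. Its differences from control were 0.01 ± 0.12 for clozapine and 0.03 ± 0.12 for haloperidol, and haloperidol replicate 2 and clozapine replicate 3 were its extremes.

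The partner on the target membrane, Stx1a, syntaxin 1A, varied far more. It had 9.75, 9.77 and 9.10 in the clozapine arrays, 8.96, 9.53 and 9.59 in the haloperidol arrays and 9.68, 9.34 and 7.95 in the control arrays. Control replicate 3 was the lowest array, followed by haloperidol replicate 1 and clozapine replicate 3. Clozapine minus control was 0.55 ± 0.43 and haloperidol minus control 0.37 ± 0.43. Without control replicate 3 these were 0.03 and -0.15, so that array set the size of both, and the sign for haloperidol.

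Syt1, the calcium sensor of fast transmitter release, behaved likewise. It had 11.07, 11.32 and 9.68 in the clozapine arrays, 9.80, 11.09 and 11.08 in the haloperidol arrays and 10.98, 10.39 and 8.57 in the control arrays. Control replicate 3, clozapine replicate 3 and haloperidol replicate 1 were the lowest arrays, 1 in each group. The differences were 0.71 ± 0.70 for clozapine minus control and 0.67 ± 0.70 for haloperidol minus control. They were 0.00 and -0.03 without control replicate 3.

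Nsf, the ATPase that disassembles SNARE complexes, had 9.39, 9.63 and 8.85 in the clozapine arrays, 8.66, 9.89 and 9.31 in the haloperidol arrays and 9.31, 9.16 and 8.28 in the control arrays. The low arrays were the same as for Stx1a, with control replicate 3 lowest, and both drugs differed from control by 0.37 ± 0.38. Without that array both differences were 0.05. Syn2, synapsin II, which tethers vesicles in the reserve pool, had 8.20, 8.11 and 7.49 in the clozapine arrays, 7.62, 8.17 and 8.19 in the haloperidol arrays and 8.14, 7.48 and 6.77 in the control arrays. Clozapine minus control was 0.47 ± 0.35 and haloperidol minus control 0.53 ± 0.35, or 0.12 and 0.18 without control replicate 3. Syp, synaptophysin, the abundant membrane protein of the synaptic vesicle, had 9.62, 9.09 and 8.86 in the clozapine arrays, 9.04, 9.24 and 9.23 in the haloperidol arrays and 9.63, 8.90 and 8.95 in the control arrays. Its differences from control were 0.03 ± 0.24 for clozapine and 0.01 ± 0.24 for haloperidol.

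These 5 members, Nsf, Stx1a, Syn2, Syp and Syt1, shared an order of arrays that crossed the treatments. Clozapine replicate 3, haloperidol replicate 1 and control replicates 2 and 3 were the 4 lowest arrays for each of them, or 13.5% of the 37 members, against 4.99% of all probe sets tested. This set of arrays was picked after the values were seen and is described without a test. The same arrays were the 4 highest for 1 member, Vamp4 (2.7% of the 37), against 4.58% of all probe sets tested. The mean of the 4 arrays minus that of the other 5 was -1.50 for Syt1, -0.83 for Syn2, -0.82 for Stx1a, -0.77 for Nsf and -0.42 for Syp. For Syp the highest of the 4 and the lowest of the other 5 were only 0.04 apart.

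For Actb and Gapdh the array carries control probe sets at both ends of the transcript, and their 3' minus 5' gap grows when RNA is shorter. The same 4 arrays had the widest mean gap. The gap was 1.14 in clozapine replicate 3, 1.30 in haloperidol replicate 1, 1.46 in control replicate 2 and 1.73 in control replicate 3. In the other arrays it lay between 0.814 and 1.132, and clozapine replicate 2, at 1.132, was close to clozapine replicate 3, at 1.137. The Actb gap alone was also widest in the 4 arrays, but the Gapdh gap alone was not. The Gapdh gap was 0.454 in clozapine replicate 2, against 0.430 in haloperidol replicate 1 and 0.312 in clozapine replicate 3. The summed linear level of the 10 general neuron markers was also lowest in these 4 arrays, at 9814 in clozapine replicate 3, 9386 in haloperidol replicate 1, 9709 in control replicate 2 and 9296 in control replicate 3. It was 10683 to 12481 in the other 5. Not every marker followed the sum, since 3, 1, 2 and 2 of the 10 lay above their own 9-array means in those 4 arrays. For the 4 excitatory neuron markers measured, the sum was likewise lowest in these arrays, at 940, 890, 713 and 814, against 968 to 1875 in the others. In the same order, 1, 1, 0 and 2 of these 4 markers lay above their own means. The 6 inhibitory neuron markers had another order, with a summed level of 7228, 8193, 7721 and 7338 in the same 4 arrays and 6828 to 8527 in the others. Of 6 astrocyte markers measured, 4 were highest in control replicate 3, where their summed level was 7620, against 5508 to 7119 elsewhere. Other lists also set that array apart. Of 7 microglia markers, 4 were lowest there, with a summed level of 1443, against 1643 to 1844 elsewhere. Of 4 cerebellar granule cell markers measured, 2 of them above the filter, 3 were highest there, with a summed level of 1502, against 681 to 1240. The part of RNA quality and of cell content in the members' values was not tested.

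**Figure D3:**
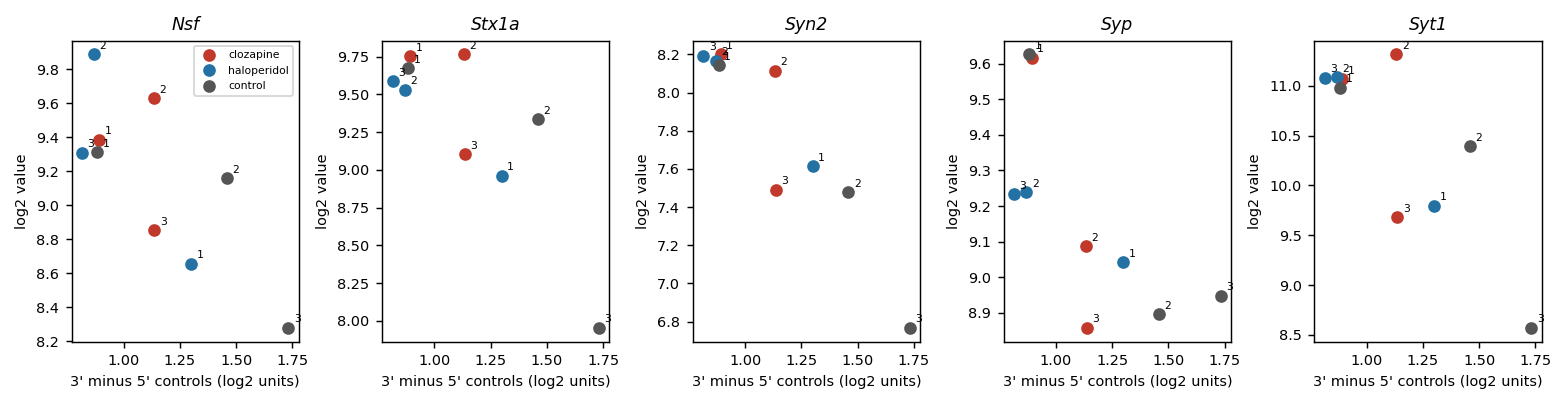
Log2 value (vertical) of Nsf, Stx1a, Syn2, Syp and Syt1 in each of the 9 arrays, with colours for the treatments. The horizontal axis is the array's 3' minus 5' gap (log2), averaged over Actb and Gapdh. The 4 arrays at the right of each panel, with gaps of 1.14 to 1.73, hold the 4 lowest values of every gene.

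The 250 bases before the start of each of these 5 genes are shown because the genes had the same 4 low arrays. They are RefSeq sequences on GRCm38.p6, written along the gene's strand, for Nsf at chr11:103954057-103954306 (minus strand), Stx1a at chr5:135023232-135023481 (plus), Syn2 at chr6:115134652-115134901 (plus), Syp at chrX:7638330-7638579 (plus) and Syt1 at chr10:109010976-109011225 (minus). Syn2 and Syt1 have 2 entries each in the RefSeq table, and the first is shown. Capitals mark an E-box in Nsf, an Egr site in Syn2 and a GC box in Syp.
Nsf: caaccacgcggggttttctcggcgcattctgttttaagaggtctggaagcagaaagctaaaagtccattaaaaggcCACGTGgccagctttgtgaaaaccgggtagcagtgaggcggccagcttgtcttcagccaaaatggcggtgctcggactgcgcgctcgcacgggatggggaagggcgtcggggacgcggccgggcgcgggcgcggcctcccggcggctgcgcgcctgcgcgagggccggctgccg
Stx1a: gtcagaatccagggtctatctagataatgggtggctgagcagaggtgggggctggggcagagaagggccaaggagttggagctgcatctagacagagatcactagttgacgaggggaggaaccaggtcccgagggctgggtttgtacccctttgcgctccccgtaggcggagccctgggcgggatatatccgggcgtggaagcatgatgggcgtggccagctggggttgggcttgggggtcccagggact
Syn2: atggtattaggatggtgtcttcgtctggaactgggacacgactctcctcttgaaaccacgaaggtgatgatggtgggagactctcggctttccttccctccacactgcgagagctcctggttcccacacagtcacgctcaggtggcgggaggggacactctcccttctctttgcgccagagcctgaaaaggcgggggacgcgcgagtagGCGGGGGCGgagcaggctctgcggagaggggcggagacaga
Syp: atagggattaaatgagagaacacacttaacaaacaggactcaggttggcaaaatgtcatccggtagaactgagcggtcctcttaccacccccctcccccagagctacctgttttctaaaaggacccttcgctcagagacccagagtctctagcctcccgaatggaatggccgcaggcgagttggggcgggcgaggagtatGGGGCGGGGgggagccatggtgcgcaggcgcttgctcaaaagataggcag
Syt1: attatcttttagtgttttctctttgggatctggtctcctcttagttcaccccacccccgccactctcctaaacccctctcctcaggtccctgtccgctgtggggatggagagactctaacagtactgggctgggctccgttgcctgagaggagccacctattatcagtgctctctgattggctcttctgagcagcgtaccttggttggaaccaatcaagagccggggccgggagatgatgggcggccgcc
The motifs searched, on both strands, were the E-box CACGTG, the Egr site GCGGGGGCG, the GC box GGGGCGGGG, the cAMP response element TGACGTCA and TTCAGCACC, the left part of the RE1 element. The Egr site and the GC box can share bases. No one motif occurred in all 5 promoters, and Stx1a and Syt1 held none in the windows shown. Over the 31 tested members with a RefSeq entry, 8 (25.8%) held the GC box, against 11.8% of 27025 genes. The E-box occurred in 6 members (19.4%) and 6.86% of all genes, and the Egr site in 3 members (9.68%) and 2.93% of all. The cAMP response element was in 2 members (6.45%), against 1.77% of all, and the RE1 part in 0, against 0.348%. The members' promoters had a median GC content of 61.2%, against 52.0% over all genes. The 27025 genes were all those with a RefSeq entry, whether or not they were on the array or above the filter. They were not matched to the members in GC content or level, so no enrichment is read from these shares. A match is a description of these letters only.

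A second order of arrays separated clozapine replicate 1, haloperidol replicate 3 and control replicate 1. These 3 arrays were the highest for Cltb, Syngr1, Syt11, Syt5, Syt7 and Vamp1, 6 of 37 members (16.2%), against 12.2% of all probe sets. They were the lowest for Napb, Stx4a, Sypl and Syt4, 4 of 37 (10.8%), against 4.39%. Syngr1, synaptogyrin 1, a vesicle protein related to synaptophysin in its topology, had 6.48, 4.79 and 5.52 in the clozapine arrays, 5.53, 4.97 and 6.26 in the haloperidol arrays and 7.49, 5.27 and 2.48 in the control arrays. The control values spanned more than those of either drug group, and the differences from control were 0.52 ± 1.11 for clozapine and 0.50 ± 1.11 for haloperidol. Without control replicate 3 they were -0.78 and -0.80.

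Syt11, a synaptotagmin that does not bind calcium, had 9.01, 8.21 and 8.08 in the clozapine arrays, 8.43, 7.85 and 8.85 in the haloperidol arrays and 9.22, 8.61 and 7.03 in the control arrays. Clozapine minus control was 0.15 ± 0.55 and haloperidol minus control 0.09 ± 0.55, and both turned to -0.48 and -0.54 without control replicate 3. Over the 8 synaptotagmins tested, 6 lay above control in clozapine and 3 in haloperidol, where centring gave 6 and quantile normalization 4. Clozapine minus haloperidol was above 0 for 8 of 8, between 0.03 and 0.30, but for 5 of 8 after each array was centred on its median and 7 of 8 after quantile normalization. None of the 8 had an unadjusted limma p under 0.05 in any comparison, over which 0.939% to 9.12% of all probe sets did. Syt3, the synaptotagmin with separate drug groups, had 5.58, 5.36 and 5.31 in the clozapine arrays, 5.29, 5.31 and 5.27 in the haloperidol arrays and 5.55, 5.32 and 5.27 in the control arrays. Its lowest clozapine value exceeded its highest haloperidol value by less than 0.01.

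Complexins clamp and then assist the assembled SNARE complex. Cplx1 had 8.90, 8.17 and 8.21 in the clozapine arrays, 8.39, 8.21 and 8.37 in the haloperidol arrays and 8.94, 8.60 and 6.73 in the control arrays. The lowest array was control replicate 3, and the differences from control were 0.34 ± 0.52 for clozapine and 0.24 ± 0.52 for haloperidol. They became -0.34 and -0.45 without it. Cplx2 had 6.26, 8.60 and 4.50 in the clozapine arrays, 5.17, 9.61 and 4.996 in the haloperidol arrays and 5.66, 4.10 and 8.68 in the control arrays. Clozapine replicate 2, haloperidol replicate 2 and control replicate 3 lay between 8.60 and 9.61 and the other 6 arrays between 4.10 and 6.26, so that every group held 1 high array. The differences from control, 0.31 ± 1.66 and 0.45 ± 1.66, were far smaller than this split. The split was not particular to Cplx2. Those 3 arrays were the highest for Cplx2 and Napb, 2 of 37 members (5.41%), against 3.9% of all probe sets tested. They were the lowest for Cltb, Cplx1 and Syngr1, 3 of 37 (8.11%), against 6.05%, a description without a test. Stxbp3, a Munc18 protein that binds syntaxin 4, ranged from 6.61 to 7.89.

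**Figure D4:**
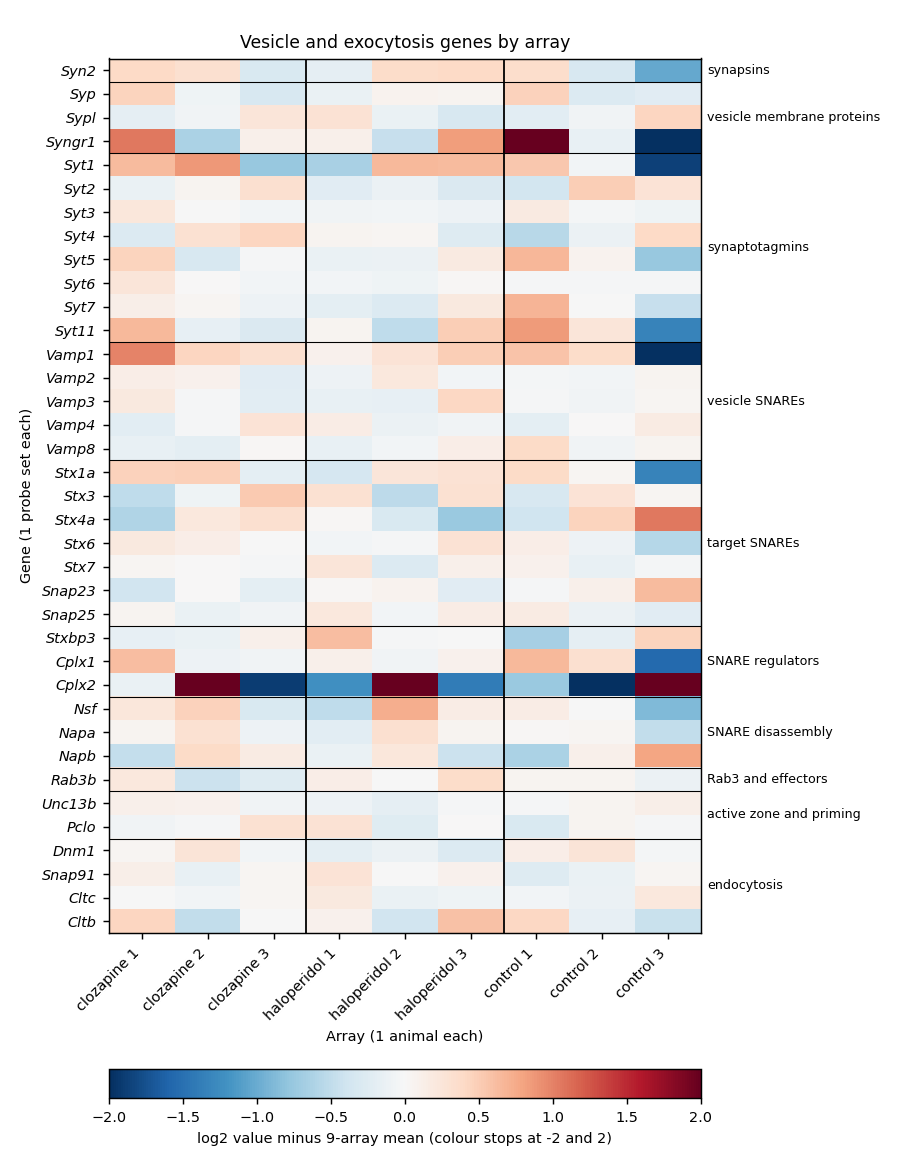
Deviation of each of the 37 members (vertical, grouped by role) from its own mean over the 9 arrays (log2, colour, which stops at -2 and 2) in every array (horizontal, by treatment). Control replicate 3 holds deep colours, with Vamp1, Syngr1 and Syt1 low and Cplx2 high. Deep colours also occur elsewhere, as for Cplx2 in haloperidol replicate 2 and Syngr1 in control replicate 1. The split of Cplx2 crosses all treatments.

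Taken over the list, the members' median deviation from their own means was 0.11, 0.00 and -0.05 in the clozapine arrays, -0.05, -0.05 and 0.08 in the haloperidol arrays and 0.06, -0.02 and -0.04 in the control arrays. No group stood apart by this measure. Control replicate 3 was the lowest array for 13 of 37 members (35.1%), against 22.4% of all probe sets, and the highest for 6 (16.2%), against 13.4%. Without it, 22 of 37 members lay above control in clozapine, beside 44.3% of all probe sets, and 19 in haloperidol, beside 39.6%, each with a median difference of 0.03. In that fit 0 members had an unadjusted p under 0.05 in clozapine, beside 2.63% of all probe sets, and 3 in haloperidol, Dnm1, Snap91 and Stxbp3, beside 8.99%. The adjusted p of each of these 3 was 0.538 in limma. For clozapine against haloperidol it was 1, Dnm1, beside 2.39%.

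Vamp1, synaptobrevin 1, showed how far 1 array could decide a difference. It had 6.61, 6.04 and 5.93 in the clozapine arrays, 5.70, 5.88 and 6.10 in the haloperidol arrays and 6.19, 5.98 and 2.05 in the control arrays. Control replicate 3 minus the median of the other 8 arrays was -3.96. Clozapine minus control was 1.45 ± 0.97 and haloperidol minus control 1.15 ± 0.97, the largest of the members tested, and they were 0.11 and -0.19 without that array. A further Vamp1 probe set held control replicate 3 within 0.02 of the other arrays' median and gave -0.09 for clozapine and -0.29 for haloperidol, which for haloperidol had an unadjusted p of 0.0203 and an adjusted p of 0.53 in limma.

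Probe sets of the same gene often differed in this way. Of 8 members with more than 1 probe set above the filter, 4 gave the same sign in both for clozapine minus control, 5 for haloperidol minus control and 6 for clozapine minus haloperidol. Napb, beta-SNAP, the brain adaptor that brings NSF to SNARE complexes, had 9.04, 9.90 and 9.67 in the clozapine arrays, 9.38, 9.74 and 9.08 in the haloperidol arrays and 8.88, 9.61 and 10.30 in the control arrays. Control replicate 3 was the highest array there, whereas a further Napb probe set had 8.14, 7.94 and 7.41 in the clozapine arrays, 7.41, 8.11 and 8.02 in the haloperidol arrays and 7.98, 7.86 and 5.55 in the control arrays, with that array the lowest. The differences from control were -0.06 ± 0.37 and -0.20 ± 0.37 for clozapine and haloperidol in the first, and 0.70 ± 0.60 and 0.72 ± 0.60 in the other. Without control replicate 3 they were 0.29 and 0.16 in the first and -0.09 and -0.07 in the other. A further Vamp2 probe set also held control replicate 3 low, at 6.28 against 8.26 to 9.59 in the other arrays.

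**Figure D5:**
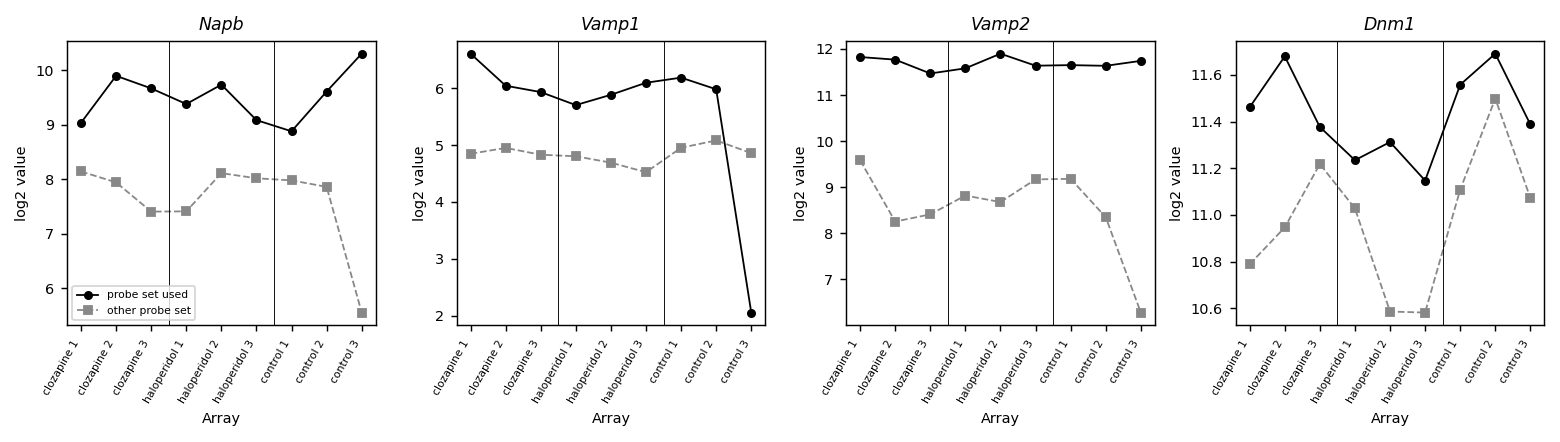
Log2 value per array (vertical) in the 9 arrays (horizontal, by treatment) for the probe sets of Napb, Vamp1, Vamp2 and Dnm1, with 1 line per probe set. Control replicate 3 drops in 1 probe set of Napb, Vamp1 and Vamp2 but not in the other, while both Dnm1 probe sets hold the haloperidol arrays below the control arrays.

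Of the Rab3 GTPases, which accompany vesicles to the membrane, Rab3b was the one above the filter. It had 7.15, 6.52 and 6.68 in the clozapine arrays, 7.08, 6.94 and 7.32 in the haloperidol arrays and 7.003, 6.99 and 6.83 in the control arrays. Haloperidol replicate 3, the array with pituitary transcripts, was the highest, and the part of those transcripts in it was not tested. Clozapine minus haloperidol was -0.33 ± 0.17, with a 95% interval of -0.73 to 0.070, an unadjusted p of 0.0933 and an adjusted p of 0.915 in limma. It was -0.23 without haloperidol replicate 3, and ranged from -0.52 without clozapine replicate 1 to -0.20 without clozapine replicate 2. Rab3a, the main Rab3 of brain synapses, was below the filter, from 2.43 to 2.65 over the 9 arrays, and was not tested. Cltb, Stx6 and Vamp3 were likewise highest in haloperidol replicate 3. With Rab3b these were 4 of 37 members (10.8%), against 14.96% of all probe sets tested, a description without a test.

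The active zone is the site where vesicles dock and are primed. Unc13b, the priming factor Munc13-2, had 6.28, 6.27 and 6.11 in the clozapine arrays, 6.08, 5.9999 and 6.16 in the haloperidol arrays and 6.16, 6.24 and 6.30 in the control arrays. The haloperidol arrays lay just below the control arrays, with a difference of -0.15 ± 0.09 and an adjusted p of 0.61 in limma, which was -0.05 after centring. Clozapine minus haloperidol was 0.14 ± 0.09, with an adjusted p of 0.932 in limma. Pclo, piccolo, a large scaffold of the active zone, ranged from 10.00 to 10.62 with overlapping groups. Bsn, its relative bassoon, was below the filter, as were Rab3d, Stx8, Stxbp2, Syngr2 and Syt9, all at 3.29 or less in every array.

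Other genes of the vesicle cycle, 102 in number and listed by role without regard to these values, were read beside the members. A named probe set was on the array for 56, and 51 lay above the filter. In clozapine against control 26 lay above and 25 below, with a median of 0.00, and in haloperidol against control 22 above and 29 below, with a median of -0.03. After adjustment over all probe sets, limma called 0 of 51 in each. At an unadjusted p under 0.05 there was 1 in clozapine and 2 in haloperidol, beside 0.939% and 9.12% of all probe sets.

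These were Gdi2 and Ap2m1. Gdi2, which extracts Rab proteins from membranes, had 10.56, 10.52 and 10.46 in the clozapine arrays, 10.42, 10.56 and 10.64 in the haloperidol arrays and 10.42, 10.17 and 10.22 in the control arrays. Clozapine minus control was 0.24 and haloperidol minus control 0.27, and haloperidol replicate 1 lay just below control replicate 1. Ap2m1, the medium chain of the AP-2 adaptor that gathers cargo for clathrin, had 9.19, 9.13 and 9.20 in the clozapine arrays, 8.95, 8.88 and 8.95 in the haloperidol arrays and 9.47, 9.56 and 9.01 in the control arrays. The haloperidol arrays lay below all control arrays, by -0.42 ± 0.14, with an unadjusted p of 0.016 and an adjusted p of 0.53 in limma, and by -0.59 without control replicate 3. In clozapine against haloperidol 27 of the 51 lay above, beside 56.4% of all probe sets, and 24 below, and 0 had an unadjusted p under 0.05, beside 3.64%.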

How the data were processed

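RNA of 9 forebrains, 3 per treatment, was measured on Affymetrix U74Av2 arrays. The authors deposited log2 probe set values made with GCRMA, per the submitters' processing notes, whose version was not given in the sources used here. GCRMA models each probe's background, normalises arrays to each other and summarises probes, so low values gather near a floor. Arrays were grouped by their titles, and array medians lay between 4.01 and 4.21. The number of arrays limits the precision, and the median residual SD was 0.196.

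Of 12488 rows, 66 Affymetrix controls were left out, and probe sets averaging above the 40th percentile (3.448) were kept, which left 7453. A linear model of the 9 arrays with treatment as its factor was fitted in limma 3.58.1 in R 4.3.3 (lmFit and eBayes, 6 residual degrees of freedom), two-sided, with Benjamini-Hochberg adjustment over 7453 probe sets and a threshold of 0.05. Members were read from probe sets with 1 symbol in the platform annotation. The model was also run on simulated arrays with independent noise in every value. Those lack the deviations that the real arrays share across treatments, so the run gives no measure of error rates in these data.

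The members, lists and tests were chosen with earlier results of these data known. Per-array values are given for a fixed set with members of each role, for the 3 members of lowest p in each comparison, and for members with control replicate 3 over 1 log2 unit from the median of the other arrays. Syt3 and the further probe sets were added after their values were seen. Alternatives covered the filter, array centring or quantile normalization, a robust prior with an intensity trend, only the 6 arrays of a comparison, the replicate block, the average over a gene's probe sets, and each array left out.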

Additional observations from a re-analysis of the deposited data

How the results depend on the processing

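No probe set passed limma's adjusted threshold in any fit or alternative run, so the counts of calls were 0 throughout, and the lowest adjusted p over the alternatives of the 47 gene differences named was 0.471. The median used for centring was that of all probe sets except the Affymetrix controls, tested or not. It was 4.07, 4.06 and 4.02 in the haloperidol arrays and 4.15, 4.19 and 4.11 in the control arrays. Over the tested probe sets alone the medians were 6.25, 6.17 and 6.33 for haloperidol and 6.30, 6.22 and 6.10 for control. Centring on the tested probe sets was not run. Centring each array on the median of all probe sets shifted them by 0.10 in haloperidol minus control and by -0.10 in clozapine minus haloperidol. The members' median then became 0.16 in haloperidol minus control and -0.07 in clozapine minus haloperidol, where 12 of 37 members lay above, and Cltc in haloperidol minus control became 0.082. With quantile normalization, Snap25 in clozapine minus control became -0.0027, and in haloperidol minus control Syp became -0.0083 and Vamp2 -0.028. The cause of these changes of sign was not tested, beyond the shift that centring itself makes.

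Leaving out 1 array at a time changed the sign of 22 of the 47 differences. In clozapine minus control the ranges were -0.18 to 0.26 for Syp, -0.057 to 0.12 for Vamp2, -0.073 to 0.12 for Snap25, -0.34 to 0.77 for Cplx1, -0.76 to 1.58 for Cplx2, -0.42 to 0.29 for Napb, -0.13 to 0.033 for Dnm1, -0.086 to 0.075 for Cltc, -0.048 to 0.044 for Unc13b, -0.78 to 1.72 for Syngr1 and -0.48 to 0.61 for Syt11. In haloperidol minus control they were -0.12 to 0.25 for Syp, -0.19 to 1.88 for Vamp1, -0.067 to 0.092 for Vamp2, -0.15 to 0.72 for Stx1a, -0.031 to 1.17 for Syt1, -0.45 to 0.66 for Cplx1, -1.06 to 1.72 for Cplx2, -0.56 to 0.16 for Napb, -0.13 to 0.075 for Cltc, -0.80 to 1.71 for Syngr1 and -0.54 to 0.56 for Syt11. The members' median ranged from 0.03 to 0.07 in clozapine minus control, from 0.02 to 0.12 in haloperidol minus control and from -0.032 to 0.09 in clozapine minus haloperidol, where it was below 0 without clozapine replicate 1. Members above numbered 20 to 26, 19 to 23 and 17 to 26 in these comparisons.

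Over all probe sets tested, 70 had an unadjusted p under 0.05 in clozapine against control, 680 in haloperidol against control and 271 between the drugs. In the same order the counts were 106, 1944 and 2061 without the filter, 36, 182 and 30 at the 60th percentile, 94, 472 and 107 after quantile normalization, 48, 912 and 585 with an intensity trend, and 73, 473 and 124 with the 6 arrays compared. Leaving out 1 array gave 39 to 196, 161 to 752 and 37 to 445. Samples of the same replicate number did not deviate together throughout. Over 9 such pairs r ran from -0.597 to 0.697, and it was over 0.1 in 3 of them, so the numbers did not pair all samples. With the replicate number as a block, limma called 0 probe sets, the members' medians stayed at 0.04, 0.05 and 0.03, and Dnm1 in haloperidol minus control had an adjusted p of 0.555. The block gave 60, 665 and 333 probe sets at an unadjusted p under 0.05.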
